A study of Mus musculus with 6 samples.

Results

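Macrophages are resident immune cells of the fetal testis, and 10 genes that they and other leukocytes express were followed here in whole E14.5 male gonads: Csf1r, Adgre1, Cd68, Cx3cr1, Mrc1, Lyz2, Aif1, Ptprc, Fcgr1 and Tyrobp. The members are all non-control probes of the array whose transcript accession belonged to 1 of these genes. Of the 10 genes, 9 were found, as 17 of 41174 probes and as 9 of 16535 genes matched to a symbol, while no probe was matched to Cd68, which was not analysed here. Of the 17 probes, 12 were well above background on all 6 arrays and entered the tests, and each of the 9 genes had at least 1 of them. The other 5 probes (1 each for Csf1r, Adgre1 and Cx3cr1 and 2 for Ptprc) were too dim to be tested. Total RNA of 6 gonad samples had been hybridized in 1 colour, 2 samples each of Nanos2+/-, of Nanos2-/-, and of Nanos2-/- carrying a transgene for 3×FLAG-tagged Nanos2-ΔN10 (Nanos2-/-_Tg+). Nanos2 encodes an RNA-binding protein of male fetal germ cells. The transgene, driven by the upstream sequence of Nanos2 itself and studied in 1 transgenic line, encodes a NANOS2 protein without the N-terminal residues through which it binds the CCR4-NOT deadenylase complex. All 6 samples were male, E14.5 and of mixed ICR and N2 background, and the Nanos2+/- controls carried 1 null allele themselves (a lacZ allele in the study's crosses), so no wild-type gonad was measured. The comparisons ask whether the macrophage transcripts of the gonad differed when Nanos2 was lost from the germ cells and when the truncated protein was put back. The study calls the samples biological duplicates, but whether gonads of several embryos were pooled is not stated in the sources used here.

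Tissue macrophages of the embryo descend from yolk sac and fetal liver progenitors and depend on the CSF1 receptor for their survival. In the fetal testis they lie around the blood vessels and the forming cords and clear dying cells. Nanos2 acts in the germ cells, a different cell type of the same organ.

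The array values are log2 signals, that is the intensity of a probe after each array was scaled to the same 50th percentile and low values were raised to 5 (2.32 on the log2 scale). They can be compared between samples for 1 probe but not between probes. Between 64.1 and 66.7% of probes were well above background on each array, and a log2 signal of 3.47 to 3.84 was the lowest that still counted as such. Nanos2 itself read 9.42 and 10.78 in Nanos2+/-, stayed at the floor of 2.32 in both Nanos2-/- samples and read 13.28 and 14.25 in Nanos2-/-_Tg+, which fits the labels. Markers of germ cells (8 of 8 genes), Sertoli cells (8 of 8) and fetal Leydig cells (6 of 6 matched) were well above background on all 6 arrays. The 2 Nanos2+/- samples lay on 1 slide and the other 4 on another, so genotype and slide cannot be told apart in the 2 comparisons with the controls, whereas Nanos2-/-_Tg+ and Nanos2-/- shared a slide. Both comparisons against Nanos2+/- also shared the same 2 control arrays.

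Sequence in front of these genes is shown because their shared expression in myeloid cells is tied to the ETS factor PU.1 (Spi1), whose core site reads GAGGAA on one strand and TTCCTC on the other. The 250 bases before each annotated start in RefSeq (build GRCm38.p6) were searched for these letters on both strands. Promoters of 7 of the 10 genes were counted here, with Csf1r left out of the count and no promoter of Adgre1 or Tyrobp among those searched. The 7 include Cd68, which had no matched probe on the array. Of the 7, 5 held the letters in at least 1 promoter, against 25.9% of 26994 genes, a share taken without that exclusion. Counted by promoter, 5 of 8 held them, since a second promoter of Ptprc did not, against 23.3% of 32817 promoters. Each stretch below runs 5′ to 3′ on the strand of its gene, with the matching letters in capitals.
Ptprc (chr1:138175446-138175475, minus strand, 158 bases before the start): tgttttcctttaGAGGAAaattgagacgaa
Mrc1 (chr2:14229367-14229396, plus strand, 35 bases before the start): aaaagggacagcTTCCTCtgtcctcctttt
Fcgr1 (chr3:96294007-96294036, minus strand, 55 bases before the start): atggcaacttccTTCCTCttttctaatctt
Aif1 (chr17:35176053-35176082, minus strand, 7 bases before the start): tagccgtggtgataggcacccagTTCCTCc
The promoter of Cd68 held them too, the stretch of Mrc1 is 1 of 3 matches in its promoter, and no match lay in the windows of Cx3cr1 and Lyz2. A match describes the letters only and was not tied to any value below.

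Across the 3 genotypes the macrophage genes were nearly level. No probe of any of them passed the test in any comparison, and the brightest probe of each gene ranged over only 0.20 (Aif1) to 0.89 (Cx3cr1) on the log2 scale across the 6 arrays. In bulk RNA, fewer macrophages and less RNA per macrophage cannot be told apart. The mean signal of the 9 genes, each centred on its own mean, was -0.06 and 0.10 in Nanos2+/-, -0.07 and 0.04 in Nanos2-/-, and 0.00 and 0.00 in Nanos2-/-_Tg+. The widest gap, between replicate 2 of Nanos2+/- and replicate 1 of Nanos2-/-, was little larger than that between the 2 replicates of Nanos2+/-. By their brightest probes, Cx3cr1 was the gene with the widest gap between genotypes, and it was lower in Nanos2-/-_Tg+.

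**Figure D1:**
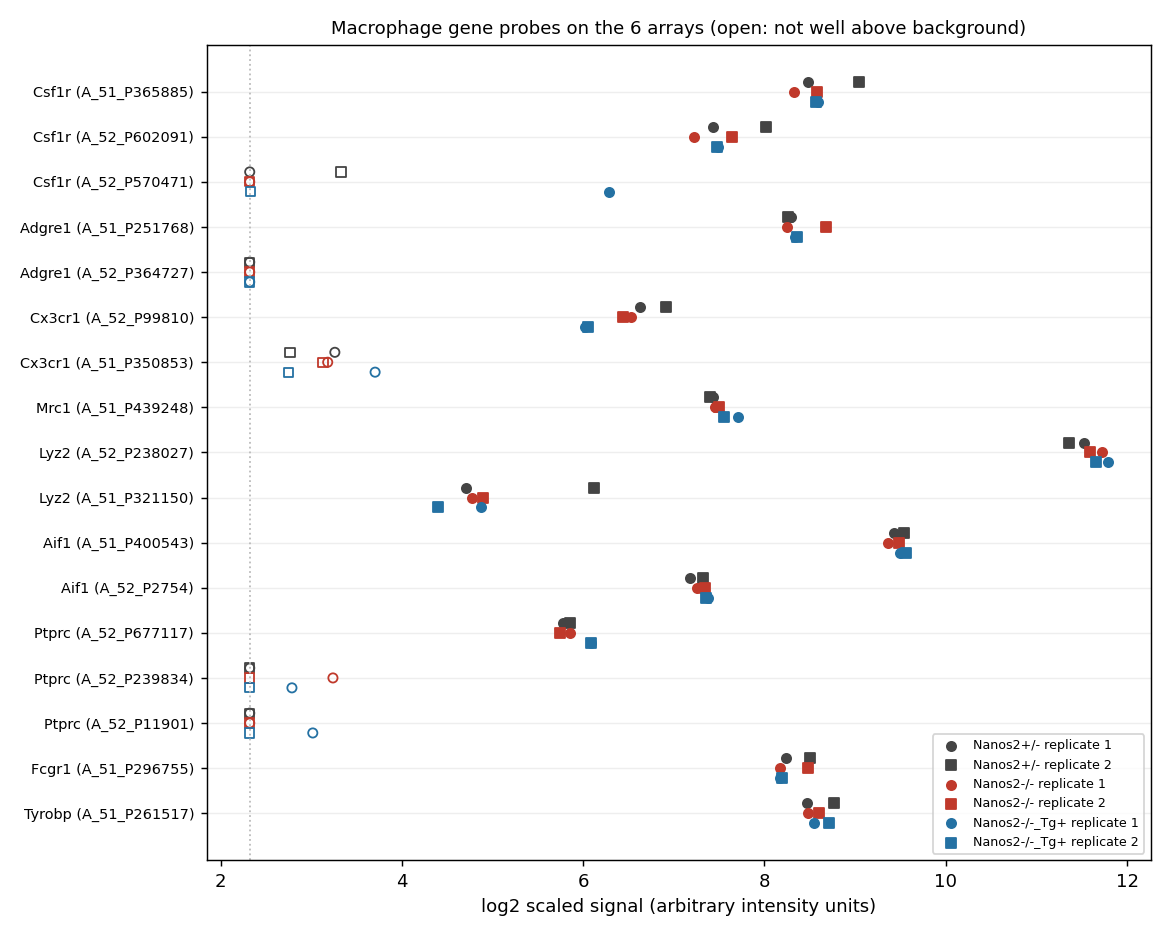
Log2 scaled signal (x axis, arbitrary intensity units) of each of the 17 macrophage gene probes (y axis) on each of the 6 arrays, coloured by genotype with the marker giving the replicate; open markers are not well above background. The 6 arrays of a tested probe sit close together, except for the dim probe of Lyz2, while the 5 untested probes lie near the floor of 2.32 apart from 1 array of a Csf1r probe at 6.29.

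Csf1r, the receptor for CSF1 and IL34 on which macrophages depend, was measured by 2 probes. The brighter read 8.48 and 9.04 in Nanos2+/-, 8.33 and 8.58 in Nanos2-/- and 8.59 and 8.57 in Nanos2-/-_Tg+. The second read 7.43 and 8.01, 7.22 and 7.64, and 7.49 and 7.48 in the same order. On both probes replicate 2 of Nanos2+/- was the highest array and the genotypes overlapped, so the lower means of Nanos2-/- (-0.30, with a 95% interval of -0.85 to 0.24, and -0.29, -0.88 to 0.30) were within the spread between replicates. The remaining Csf1r probe was at or near the floor on 5 arrays and read 6.29 on replicate 1 of Nanos2-/-_Tg+ alone, where the other 2 probes of the gene showed no such high value.

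Cx3cr1, the receptor for the chemokine fractalkine on macrophages and monocytes, read 6.63 and 6.92 in Nanos2+/-, 6.53 and 6.44 in Nanos2-/- and 6.03 and 6.05 in Nanos2-/-_Tg+. The 3 genotypes did not overlap, and both transgenic samples were the lowest. The mean was 6.77 ± 0.20 (SD, n = 2) in Nanos2+/-, 6.48 ± 0.07 in Nanos2-/- and 6.04 ± 0.02 in Nanos2-/-_Tg+. Against Nanos2+/- the transgenic samples were lower by 0.73 on the log2 scale (95% interval -1.18 to -0.29, or 0.443 to 0.817 of the control signal), with an unadjusted p of 0.00534 and an adjusted p of 0.200 by limma with Benjamini-Hochberg adjustment over 26712 probes. Against Nanos2-/-, on the same slide, the difference was -0.44 (95% interval -0.885 to -0.000921, limma unadjusted p of 0.0496, adjusted p of 1). Neither passed. The other Cx3cr1 probe, whose signals of 2.75 to 3.71 were not well above background on any array, cannot show whether it behaved alike.

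Adgre1 encodes F4/80, the surface protein most used to mark mouse macrophages. It read 8.29 and 8.26 in Nanos2+/-, 8.24 and 8.68 in Nanos2-/- and 8.34 and 8.36 in Nanos2-/-_Tg+. Only replicate 2 of Nanos2-/- stood out, as the highest, and Nanos2-/- spanned all other arrays. The change was 0.19 (95% interval -0.29 to 0.67) in Nanos2-/- and 0.08 (-0.40 to 0.56) in Nanos2-/-_Tg+ against Nanos2+/-.

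Mrc1, the mannose receptor CD206 that takes up glycoproteins, read 7.44 and 7.40 in Nanos2+/-, 7.46 and 7.50 in Nanos2-/- and 7.71 and 7.56 in Nanos2-/-_Tg+. The genotypes did not overlap, in the order control, null and transgenic from low to high, but the steps were small. The transgenic samples differed from the controls by 0.22 (95% interval -0.20 to 0.63) and from the null samples by 0.16 (-0.26 to 0.57), and the limma adjusted p values were 0.716 and 1.

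Ptprc, the pan-leukocyte phosphatase CD45, was printed 10 times on each array under 1 probe name, which gives its value a spread within the array. It read 5.77 and 5.85 in Nanos2+/-, 5.86 and 5.75 in Nanos2-/- and 6.09 and 6.08 in Nanos2-/-_Tg+, the SD over its spots being 0.0637 to 0.115. Both transgenic samples were above the other 4, by a mean of 0.27 (95% interval -0.14 to 0.68) over Nanos2+/- and 0.28 (-0.13 to 0.70) over Nanos2-/-. With limma adjusted p values of 0.623 and 1, neither difference passed, and the other 2 Ptprc probes read 2.32 to 3.24, not well above background on any array. Ptprc is carried by all leukocytes, and in Nanos2-/-_Tg+ it lay on the opposite side of the controls from Cx3cr1.

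Fcgr1, the high-affinity receptor for IgG, read 8.24 and 8.50 in Nanos2+/-, 8.17 and 8.48 in Nanos2-/- and 8.17 and 8.20 in Nanos2-/-_Tg+. In Nanos2+/- and Nanos2-/- replicate 2 was the higher sample, and the transgenic pair lay below both controls. The difference of the transgenic samples from the controls was -0.19 (95% interval -0.66 to 0.28). Tyrobp, the ITAM adaptor DAP12 through which several myeloid receptors signal, read 8.47 and 8.77, 8.48 and 8.61, and 8.54 and 8.71 in the same order of genotypes. All 3 genotypes overlapped for Tyrobp, and its change was -0.08 (-0.54 to 0.38) in Nanos2-/- and 0.00 (-0.46 to 0.46) in Nanos2-/-_Tg+ against Nanos2+/-.

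Lyz2, the lysozyme of macrophages, monocytes and neutrophils, read 11.52 and 11.36 in Nanos2+/-, 11.72 and 11.59 in Nanos2-/- and 11.79 and 11.66 in Nanos2-/-_Tg+ on its brighter probe. The 4 arrays without endogenous Nanos2 were above both controls, by 0.22 (95% interval -0.21 to 0.64) and 0.28 (-0.15 to 0.71), and overlapped each other. A second Lyz2 probe went the other way, at 4.71 and 6.12, 4.77 and 4.89, and 4.87 and 4.40, with 1 high control array. Its changes of -0.58 and -0.78 had the widest errors of all members (SE 0.422). Lyz1, a neighbouring gene of near-identical sequence, may share signal with either probe, which was not tested because the probe sequences were not among the files used.

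Aif1, the actin-bundling protein IBA1 of macrophages, was the steadiest of the genes with 2 probes. The brighter read 9.43 and 9.54 in Nanos2+/-, 9.36 and 9.48 in Nanos2-/- and 9.5 and 9.56 in Nanos2-/-_Tg+, and the second 7.18 and 7.32, 7.26 and 7.34, and 7.38 and 7.35. The range over all 6 arrays was 0.20 on both. Against Nanos2+/- the brighter probe differed by -0.06 (95% interval -0.47 to 0.36) in Nanos2-/- and by 0.05 (-0.37 to 0.47) in Nanos2-/-_Tg+.

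**Figure D2:**
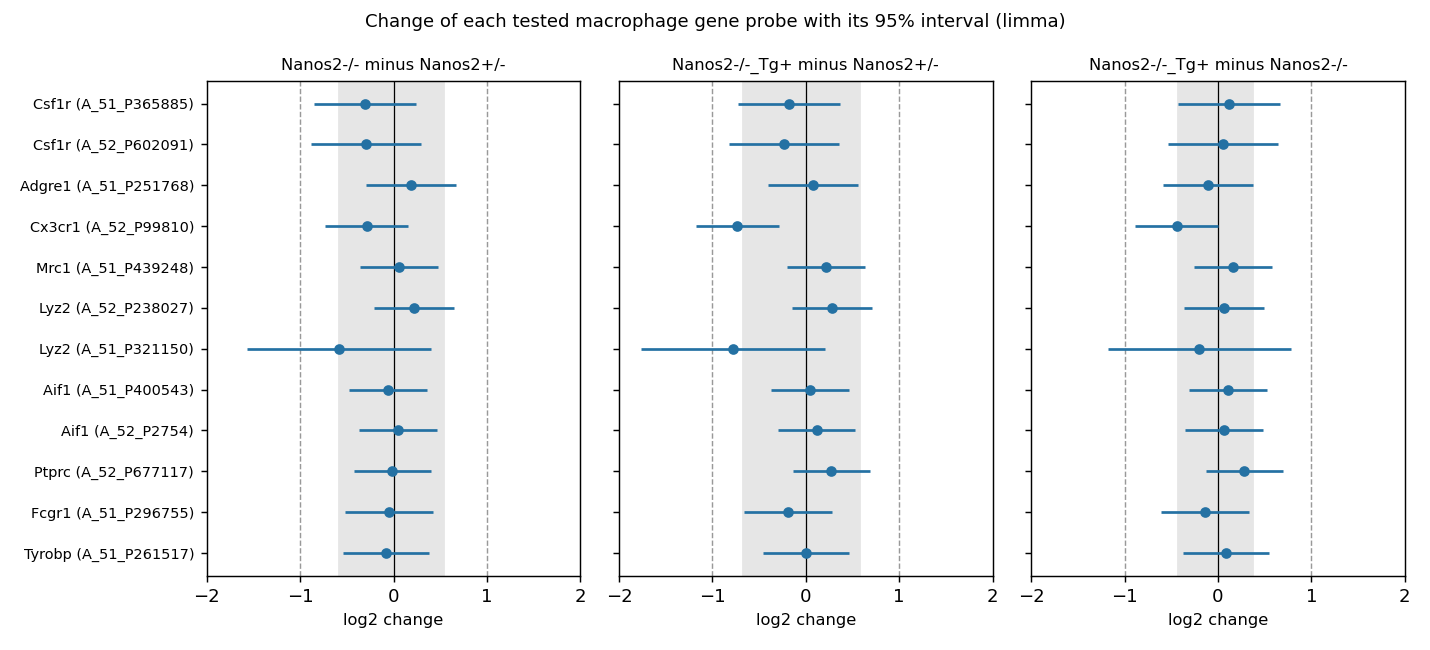
Log2 change (x axis) of each of the 12 tested macrophage gene probes (y axis) in the 3 genotype comparisons, 1 panel each; points are limma estimates, bars their 95% intervals, and the grey band runs from the 5th to the 95th percentile of all 26712 tested probes. All intervals span 0 except those of Cx3cr1 in Nanos2-/-_Tg+, at -1.18 to -0.29 against Nanos2+/- and -0.885 to -0.000921 against Nanos2-/-.

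In Nanos2-/- against Nanos2+/-, 0 of the 12 probes passed (adjusted p under 0.05 together with a 2-fold or larger difference), where 0.0674% of all tested probes did. None had an unadjusted limma p below 0.05 either, against 9.08% of all probes, and the methods' t-test called none. With each gene taken by its brightest probe, 3 were higher and 6 lower, while 44.6% of all probes were higher. The median change was -0.05, beside -0.04 over all tested probes. The arrays of the genotypes did not overlap for 3 of the 9 genes (Mrc1 and Lyz2 higher, Cx3cr1 lower), and for 36% of all probes (14.3% higher and 21.7% lower).

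In Nanos2-/-_Tg+ against Nanos2+/-, 0 of 12 probes passed, against 0.105% of all tested probes, and the methods' t-test again called none. Cx3cr1 alone had an unadjusted limma p below 0.05, where 11.6% of all probes had one. The methods' test, which called 234 of all 26712 probes, gave 2 of the 12 an unadjusted p below 0.05. It did not call them, since a 2-fold difference was also required. Of the genes, 6 were higher and 3 lower, where 48.2% of all probes were higher, and the median was 0.05 beside -0.01 over all probes. For 6 genes the arrays did not overlap (4 higher, namely Adgre1, Mrc1, Lyz2 and Ptprc, and 2 lower, Cx3cr1 and Fcgr1), against 38.9% of all probes (18.6% higher and 20.3% lower).

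The within-slide comparison of Nanos2-/-_Tg+ with Nanos2-/- gave 0 of 12 probes past the test, where 0.0187% of all probes passed, and 0 by the methods' t-test. Of the 12, 1 probe, that of Cx3cr1, had an unadjusted limma p below 0.05, against 2.74% of all probes. The methods' test, which called 40 of all 26712 probes, gave 2 of the 12 an unadjusted p below 0.05 without calling them. Again 6 genes were higher and 3 lower, where 56.8% of all probes were higher, with a median of 0.08 beside 0.03 over all probes. The arrays did not overlap for 4 genes (Mrc1, Aif1 and Ptprc higher, Cx3cr1 lower), against 31.4% of all probes (20% higher and 11.4% lower).

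On the brightest probe of a gene, the 95% intervals excluded a 2-fold change in either direction for all 9 genes between Nanos2-/- and Nanos2+/- and between Nanos2-/-_Tg+ and Nanos2-/-, and for 8 of 9 between Nanos2-/-_Tg+ and Nanos2+/-, Cx3cr1 being the exception. The dimmer Lyz2 probe did not exclude a 2-fold fall in any comparison. Its intervals were -1.57 to 0.40 in Nanos2-/- and -1.76 to 0.20 in Nanos2-/-_Tg+ against Nanos2+/-, and -1.18 to 0.79 between the last 2. Differences inside these intervals were not resolved with 2 samples per genotype, so a p above the threshold does not show that the genotypes were alike.

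On the brightest probe of each gene, replicates of 1 genotype differed less than over all tested probes. The probes compared were not matched for brightness, and the dimmer Lyz2 probe, at 4.71 and 6.12 in Nanos2+/-, is not among them. The median absolute difference between replicates over the 9 genes was 0.164 in Nanos2+/-, 0.128 in Nanos2-/- and 0.029 in Nanos2-/-_Tg+, beside 0.332, 0.198 and 0.183 over all tested probes. The Nanos2+/- pair differed most, as it did over all probes, of which 71.9% were higher on its replicate 2. For Csf1r, Fcgr1, Cx3cr1 and Tyrobp that array was the highest of all 6.

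Among 30 further macrophage genes, 28 had a probe and 23 were tested, and none passed in any comparison. Their medians were -0.08 in Nanos2-/- and -0.11 in Nanos2-/-_Tg+ against Nanos2+/-, and 0.03 between the last 2 genotypes. In all, 6 were higher and 17 lower in Nanos2-/-, 9 higher and 14 lower in Nanos2-/-_Tg+, and 15 higher and 8 lower between them. Of the brightest, Ctss, the lysosomal protease cathepsin S, read 10.65 and 10.77, 10.56 and 10.72, and 10.57 and 10.64 in the order of genotypes above. Coro1a, an actin-binding protein of leukocytes, read 10.61 and 11.36, 10.86 and 11.06, and 10.81 and 11.11. All genotypes overlapped for Coro1a, and for Ctss both transgenic samples lay just below the controls and within the range of Nanos2-/-.

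Cybb, the catalytic subunit of the phagocyte NADPH oxidase, had the lowest changes of this list. It read 5.89 and 5.49 in Nanos2+/-, 4.19 and 4.38 in Nanos2-/- and 4.30 and 4.58 in Nanos2-/-_Tg+. All 4 arrays without endogenous Nanos2 were below both controls, by 1.40 (95% interval of the change -1.91 to -0.89, limma adjusted p of 0.129) and 1.25 (-1.76 to -0.74, adjusted p of 0.106), on the other slide and with a second Cybb probe at the floor on every array. Itgb2, the β2 integrin chain of leukocytes, was at the other end, at 5.36 and 5.82, 6.06 and 5.93, and 6.31 and 5.97 (changes 0.41 and 0.55, adjusted p of 0.679 and 0.420). Between Nanos2-/-_Tg+ and Nanos2-/- the chemokine Pf4, platelet factor 4, was highest, at 9.78 and 10.02 against 9.40 and 9.41 (change 0.49, limma adjusted p of 1). The 3 tested megakaryocyte genes were also higher in that comparison, with a median of 0.56, and the part of platelets in Pf4 was not tested. The scavenger receptor gene Msr1, which had the lowest fitted value of that comparison, was not well above background in either transgenic sample or in replicate 1 of Nanos2-/-, and no fold is given for it. Probes of 5 macrophage genes were not bright enough to test, namely Spi1, Cd163, Timd4, Siglec1 and Itgam. Spi1, the gene of PU.1, read 2.86 to 3.82 and was not well above background on any array.

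Ligands and receptors of the CSF1 and CX3C systems were present around these receptors, and 0 of the 8 tested of 9 passed. Cx3cl1, which encodes fractalkine, the ligand of CX3CR1, read 11.48 and 11.30 in Nanos2+/-, 10.97 and 10.97 in Nanos2-/- and 11.21 and 11.16 in Nanos2-/-_Tg+. Both Nanos2-/- samples were the lowest (change -0.42, limma adjusted p of 0.550), whereas its receptor was lowest in the transgenic samples. Csf1 read 8.13 and 8.12, 7.86 and 8.04, and 8.18 and 7.86, and Il34, the second ligand of CSF1R, 6.92 and 8.03, 7.30 and 7.58, and 7.48 and 8.11. For Csf1 both controls were above both Nanos2-/- samples (change -0.18, limma adjusted p of 0.848) and overlapped the transgenic ones, and for Il34 all genotypes overlapped. The brightest of this list were Csf2ra, a chain of the GM-CSF receptor, at 13.32 to 13.71, and, beside Cx3cl1, Kitl, a growth factor of germ cells and mast cells, at 9.31 to 9.73 on its brighter probe, where the genotypes overlapped. The second Kitl probe read 5.05 and 4.92 in Nanos2+/-, 4.46 and 4.50 in Nanos2-/- and 4.09 and 3.82 in Nanos2-/-_Tg+, without overlap (change -1.03 in Nanos2-/-_Tg+ against Nanos2+/-, limma adjusted p of 0.123), so the 2 probes disagreed. The chemokine Ccl2 differed by 0.25 in Nanos2-/- (adjusted p of 0.847), and its receptor Ccr2 read 4.45 and 4.70 in Nanos2+/- and 3.92 to 4.28 in the other genotypes, where the transgenic samples were not well above background (at least 1.41-fold below the controls, with a limma adjusted p of 0.418).

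Of 18 genes of ITAM and Fc receptor signalling, the route that Fcgr1 and Tyrobp feed, 17 were tested and none passed. The medians of -0.20 in Nanos2-/- and -0.26 in Nanos2-/-_Tg+ against Nanos2+/- were below those of all probes, with 13 and 14 genes lower. Ptpn6, the phosphatase SHP-1, read 9.02 and 9.05 in Nanos2+/-, 8.44 and 8.15 in Nanos2-/- and 7.94 and 8.14 in Nanos2-/-_Tg+ on 1 probe (changes -0.74 and -0.997, limma adjusted p of 0.303 and 0.135), and 5.40 to 5.60 on another, where the genotypes overlapped. Its 2 probes therefore disagreed, but they were assigned to different transcripts of the gene, and whether each reads its own transcript was not tested. Among the brightest, Plcg2 and Sirpa differed by -0.27 and -0.20 in Nanos2-/- on their brightest probes. The low-affinity Fc receptors Fcgr4 and Fcgr2b were not well above background in Nanos2+/-, on signals of 3.56 to 4.81 over all arrays. Fcgr4 was at least 1.81-fold higher in Nanos2-/- (limma adjusted p of 0.280). Fcgr2b was at least 1.98-fold higher in Nanos2-/-_Tg+ (limma adjusted p of 0.196) on 1 probe. Both entered the tests only through genotypes in which they were higher, which these p values do not allow for. Another Fcgr2b probe, printed 10 times, was too dim to be tested and gave at least 1.05-fold in Nanos2-/-_Tg+ against Nanos2+/-. The remaining Fcgr2b probe was not well above background on any array. The kinase gene Fgr differed by -1.12 in Nanos2-/-_Tg+ against Nanos2+/- (adjusted p of 0.623), with 1 high control array at 5.84 and the other at 3.35.

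MHC class II genes, which antigen-presenting macrophages, dendritic cells and B cells share, had the lowest medians of the 4 macrophage-related lists, at -0.52 in Nanos2-/- and -0.42 in Nanos2-/-_Tg+ against Nanos2+/-. Between the transgenic and the null samples their median was 0.07. All 6 tested genes were lower in Nanos2-/- and 5 of 6 in Nanos2-/-_Tg+, and none passed. Cd74, the invariant chain, read 7.37 and 6.73, 6.65 and 6.49, and 6.81 and 6.61, H2-DMb1 8.31 and 7.78, 7.66 and 6.87, and 7.69 and 7.46, and H2-DMa 6.96 and 6.81, 6.69 and 6.36, and 6.68 and 6.35. For these 3 genes replicate 1 of Nanos2+/- was the highest array. H2-Ab1 (change -0.82 in Nanos2-/-, limma adjusted p of 0.713) and H2-Aa (-0.94 in Nanos2-/-_Tg+, adjusted p of 0.370) varied as much between replicates as between genotypes. Ciita read 5.24 and 2.98 in Nanos2+/-, 3.82 and 3.28 in Nanos2-/- and 4.46 and 4.71 in Nanos2-/-_Tg+. It was not well above background in Nanos2-/- and entered the tests only through the transgenic samples. No fold is therefore given for it.

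**Figure D3:**
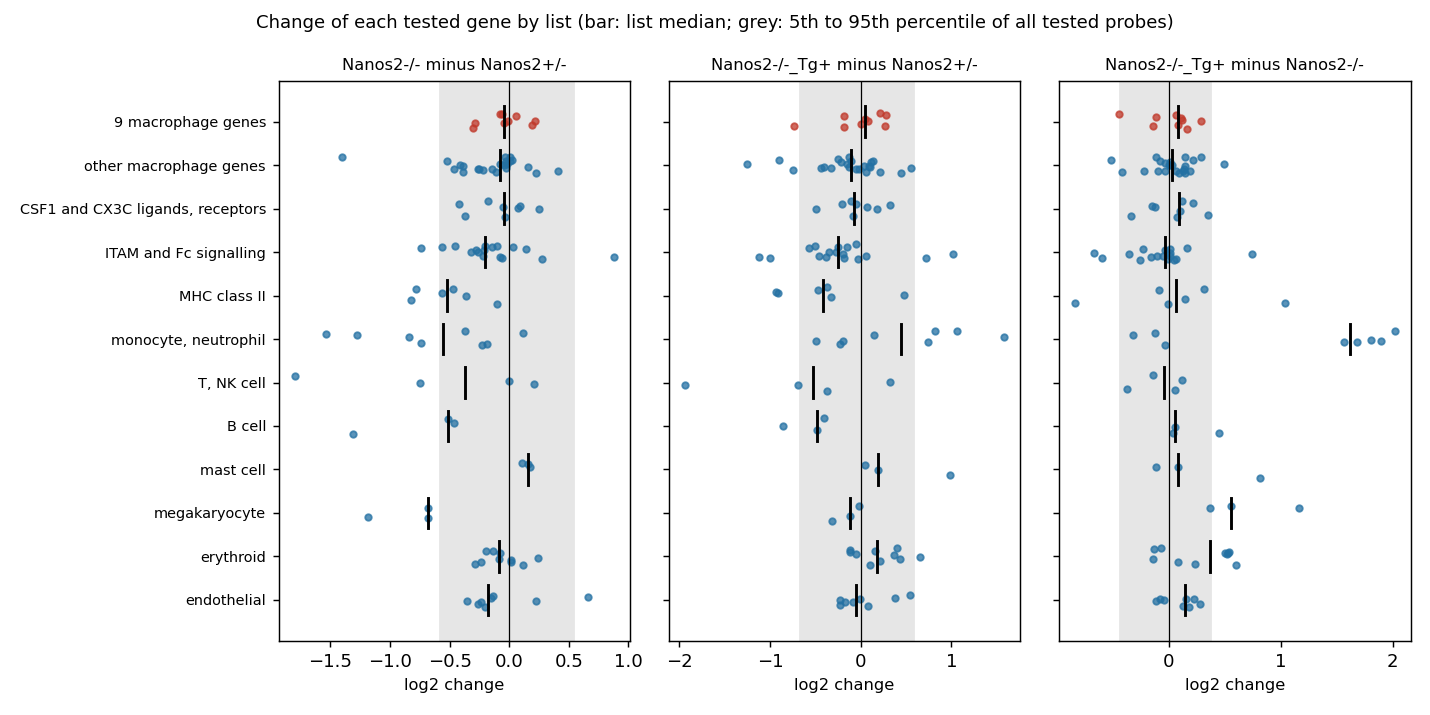
Log2 change (x axis) of each tested gene, by its brightest tested probe, in 12 gene lists (y axis) and in the 3 comparisons; the black bar is the median of a list and the grey band runs from the 5th to the 95th percentile of all tested probes. The 9 macrophage genes cluster near 0 with medians of -0.05, 0.05 and 0.08, whereas the monocyte and neutrophil list reaches a median of 1.62 in Nanos2-/-_Tg+ against Nanos2-/-.

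Lists of other blood cells differed more, although no gene of them passed in any comparison. The genes named here were chosen after their values were seen. In the monocyte and neutrophil list (8 tested of 11), the secreted calcium-binding protein S100a9 read 10.42 and 9.91 in Nanos2+/-, 11.44 and 6.34 in Nanos2-/- and 11.15 and 10.67 in Nanos2-/-_Tg+. Its partner S100a8 read 7.89 and 7.15, 8.90 and 4.65, and 8.48 and 8.19, and the granule gene Camp 5.20 and 5.31, 6.51 and 2.33, and 6.07 and 6.55. Replicate 2 of Nanos2-/- was thus far below the other 5 arrays for each of the 3. Ltf, on both of its probes, and Ngp also had their lowest value there, the floor of 2.32. Mpo, the granule peroxidase, did not stand apart, at 8.88 on that array and 8.89 on replicate 1 of Nanos2-/-_Tg+. Nor did the protease gene Prtn3, at 5.35 on that array and 5.26 in the other Nanos2-/- sample, or Ccr2, at 4.28 and 4.12. Of the macrophage genes, Adgre1 had its highest value on that array and Ptprc its lowest, 5.75, and Lyz2, which neutrophils also carry, read 11.59 against 11.72 in the other Nanos2-/- sample. The 9 genes averaged 0.04 there relative to their own means. Without replicate 2 of Nanos2-/-, 0 macrophage probes passed in either comparison with that genotype, and their medians were -0.12 against Nanos2+/- and 0.15 for Nanos2-/-_Tg+. The summed signal of the monocyte and neutrophil list was 2061 to 2287 in Nanos2+/-, 653 to 4496 in Nanos2-/- and 2758 to 3417 in Nanos2-/-_Tg+, and the part of these cells in the values of Lyz2 and Ptprc was not tested.

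The T and NK cell list (4 tested of 10) had summed signals of 402 to 637 in Nanos2+/- and 264 to 329 in the other 4 samples, and the B cell list (3 tested of 6) of 1550 to 1653 and 590 to 1100. These sums came mostly from 1 gene each, Lck at 8.78 and 8.04 in Nanos2+/- and Blnk at 10.44 and 10.52. By gene, 2 T and NK cell genes were higher and 2 lower in Nanos2-/- than in Nanos2+/-, and all 3 B cell genes were lower. The defining genes Cd3d, Cd3g and Cd4 of T cells and Cd79a, Pax5 and Ms4a1 of B cells were too dim to be tested. Mast cell genes (3 tested of 6) summed to 53.1 to 89.3 with no order between genotypes, and megakaryocyte genes (3 tested of 5) to 340 to 413, 163 to 243 and 284 to 412. Erythroid genes had a median of 0.37 and endothelial genes one of 0.14 between Nanos2-/-_Tg+ and Nanos2-/-, beside 0.08 for the macrophage genes, and whether blood content had a part in the small differences of Ptprc was not tested.

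**Figure D4:**
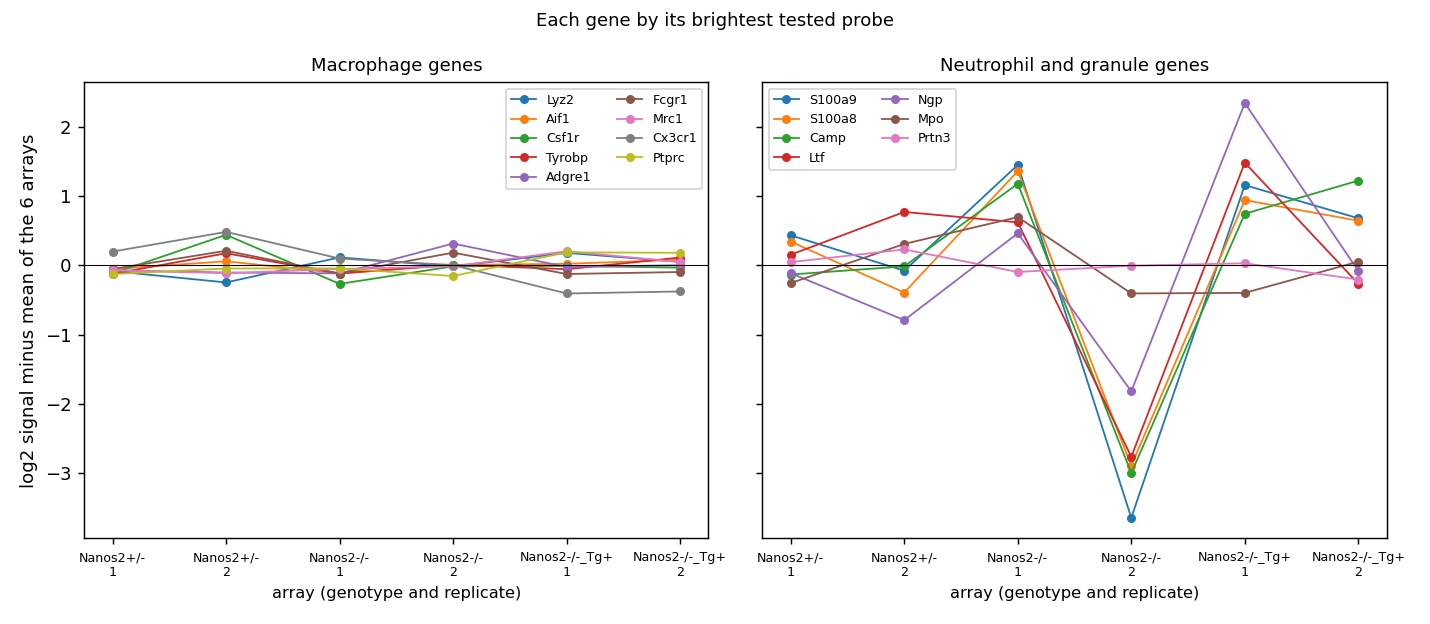
Log2 signal of each gene minus its own mean over the 6 arrays (y axis) on each array (x axis, genotype and replicate), for the 9 macrophage genes on the left and 7 neutrophil and granule genes on the right. The macrophage genes stay between -0.41 and 0.48 of their own means, while S100a8, S100a9, Camp and Ltf drop on replicate 2 of Nanos2-/-.

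Outside the members, the genes whose pattern over the 6 arrays was most like the mean of the macrophage genes were Utp25, Agpat3, Ints14, Tceanc2 and Spats2l, with root mean square differences of 0.0197 to 0.0236 on the log2 scale among 12445 genes, whose median was 0.170. Their range over the arrays was as small as that of the macrophage mean. Utp25, for example, read 8.68 and 8.86 in Nanos2+/-, 8.65 and 8.79 in Nanos2-/- and 8.75 and 8.78 in Nanos2-/-_Tg+. With 6 arrays and so flat a mean, likeness here describes steady genes.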

How the data were processed

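The deposited intensity of each spot had been background-subtracted by the authors' scanner software (Agilent Feature Extraction 9.5, per the submitters' processing notes), and the authors' value table gives the same values within 0.497%. Here each array was brought to the same 50th percentile, values under 5 were then raised to 5, and log2 was taken. The authors state the same floor and percentile, but with the floor first (tried as an alternative) and with a centring of each gene, which was not repeated. Spots of 1 probe were averaged after controls and outlier spots (54 to 82 per array) were removed. No spot was saturated. Probes were named through their accessions in RefSeq (23374 of 41174). The 26712 probes that were well above background in both samples of any genotype were fitted with limma 3.58.1 in R 4.3.3 over all 6 arrays, with no covariate and with Benjamini-Hochberg adjustment, leaving 3 residual degrees of freedom. The number of arrays limits the precision. The fit was tested on simulated data.

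The macrophage genes and the other lists were chosen with earlier results of these data known. All member probes are named. Of the 4 macrophage-related lists, the 3 brightest genes and those with the largest rise and fall per comparison are named, except for items that are not reported here. Csf1, the genes too dim to test and the neutrophil genes were chosen after their values were seen. Where a genotype was not well above background, "at least" folds take, per array, the higher of the probe's own signal and the lowest signal well above background. These folds compare mean signals and do not allow for the spread between samples. Alternatives were other scalings, floors, filters and background correction, the value table, the methods' t-test, a replicate block and leaving out each sample.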

Additional observations from a re-analysis of the deposited data

How the results depend on the processing

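No macrophage gene probe passed the test in any of the 3 comparisons under any of the 21 alternatives, which included the methods' t-test. The median change of the 9 genes moved only under normexp background correction, to 0.41 in Nanos2-/- and 0.47 in Nanos2-/-_Tg+ against Nanos2+/-. That correction had been planned on the mean spot signal, which the files used here do not hold, and was run on the median spot signal, chosen after seeing the data. It moved the median of all probes to 0.56 and 0.52, so that relative to all probes the macrophage genes were not higher. Leaving out 1 sample each, the median lay between -0.12 and 0.04 in Nanos2-/- and between -0.01 and 0.10 in Nanos2-/-_Tg+ against Nanos2+/-, and between 0.02 and 0.15 between the last 2. The difference of Cx3cr1 in Nanos2-/-_Tg+ from Nanos2+/- stayed below 0 throughout, at -0.88 to -0.36 with adjusted p of 0.1 to 0.768. The sign of the change differed under at least 1 alternative for 9, 5 and 7 of the 12 probes in the 3 comparisons, so the direction of single small changes is not settled.

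Replicate numbers are shared across genotypes, but the labels do not say what a number stands for. The differences between replicates 2 and 1 correlated across 26699 probes by 0.355, 0.313 and 0.259 between pairs of genotypes. In a fit with a replicate block the macrophage probes called stayed at 0 in each comparison and their medians at -0.05, 0.05 and 0.08, while the calls over all probes went from 18, 28 and 5 to 18, 145 and 4. Over all probes a floor of 20 and the normexp correction gave 0 calls in each comparison, and the methods' t-test 153, 234 and 40. With 2 samples per genotype, differences inside the 95% intervals of the macrophage genes were not resolved.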
